A study of Mus musculus with 5 samples.

Results

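A set of 62 protein-coding genes of mouse chemokines and chemokine receptors was examined for PU.1 binding sites. They were chosen by symbol from the RefSeq annotation of GRCm38.p6 (the mm10 coordinates) as genes named Ccl, Cxcl, Ccr, Cxcr or Ackr with a number, together with Cx3cl1, Cx3cr1, Xcl1, Xcr1 and Ccrl2. They comprise 39 ligand genes and 23 receptor genes, out of 21631 protein-coding genes that the annotation puts on an autosome or on X. Of the receptor genes, 18 encode signalling receptors and 5 encode atypical receptors. Ccl21c has no usable place on its chromosome in the table and was left out of all counts, which leaves 38 ligand genes. In all, 21523 of the 21631 were usable in this way.

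The sites come from chromatin immunoprecipitation and sequencing (ChIP-seq) of PU.1, with antibody T-21, in AML-246, an acute myeloid leukaemia grown in C57BL/6 mice and known to lack p53. Leukaemic spleen cells carried a GFP-linked short hairpin RNA against PU.1 in both groups. In untreated mice the hairpin was on and PU.1 was low (2 libraries), and in mice given doxycycline (Dox) for 2 days it was off and endogenous PU.1 had returned (3 libraries). All 5 libraries are labelled technical replicates of 1 leukaemia and may share mice, the labels do not state the age of the mice, and a list of sites holds no expression by which to check the cell type.

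A single list of 11111 peak summits was deposited, of which 11106 lay on an autosome or on X. The names of the peaks set high against low, so a listed site was read as one with more PU.1 after Dox than before. Each summit has the authors' score, a −log10 value from the peak caller. The score says how surely a site stands out and is no fold change. The list has no values for single libraries. Read depth is therefore unknown, the replicate error cannot be stated, and no test between conditions was possible. The main counts are given beside the same count over all protein-coding genes, and their 95% intervals (Wilson for shares, exact Poisson for densities) cover counting error only. Neighbouring genes share sites and are not independent, so these intervals are, if anything, too narrow.

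Chemokines are small secreted proteins that attract leukocytes along a gradient. They act on receptors that span the membrane and signal through inhibitory G proteins, whereas the atypical receptors bind chemokines without that signal and clear or transport them. Many ligand genes lie side by side as the products of local duplications, and so do the receptor genes next to Ccr2. PU.1, a transcription factor of the ETS family that myeloid and B cells need, binds DNA with a GGAA core, and its known targets include genes for receptors on monocytes and neutrophils.

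Counted together, chemokine and receptor genes had PU.1 sites nearby more often than protein-coding genes at large. Leaving out 2 site-rich gene clusters, which lowers the share by construction, brought it nearer to that of all genes. A site lay within 10 kb of either gene end in 22 of 61 members (36.1%, 95% interval 25.2 to 48.6), against 22.5% of the 21523 protein-coding genes. The receptor genes had one in 10 of 23 cases (43.5%, 25.6 to 63.2) and the ligand genes in 12 of 38 (31.6%, 19.1 to 47.5). The intervals of ligands and receptors overlap, and the one of the ligands includes the share of all genes. Within 50 kb, 40 of 61 members had a site (65.6%, 53.0 to 76.3), against 49.8% of all genes. That number was made up of 18 of 23 receptor genes (78.3%, 58.1 to 90.3) and 22 of 38 ligand genes (57.9%, 42.2 to 72.1). The 2 clusters, from Ccr9 to Ccr2 and from Ccl5 to Ccl4, hold 12 of the members. Without both, a comparison chosen after their values were seen, 12 of 49 members had a site within 10 kb (24.5%, 14.6 to 38.1) and 28 of 49 within 50 kb (57.1%, 43.3 to 70.0), and both intervals include the share of all genes.

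Close to the gene ends the order of the 2 classes was the other way round. Within 1 kb, 6 of 38 ligand genes (15.8%, 7.44 to 30.4) and 1 of 23 receptor genes (4.35%, 0.772 to 21.0) had a site, against 6.44% of all genes. The intervals overlap here too. The one of the receptor genes includes the share of all genes, and the one of the ligand genes lies above it. The single receptor gene was Xcr1, and the ligand genes were Cxcl16, Ccl9, Ccl17, Ccl2, Cxcl5 and Ccl4. From a gene end to the nearest site, the median distance was 16.0 kb for receptor genes, 24.6 kb for ligand genes and 50.6 kb for all protein-coding genes.

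**Figure D1:**
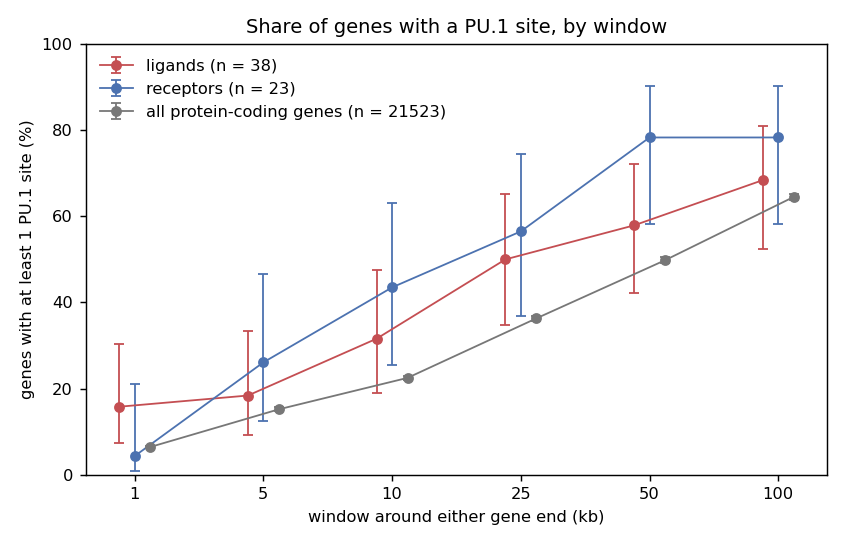
Share of genes (vertical axis, %) with at least 1 PU.1 site within 1 to 100 kb of either gene end (horizontal axis, steps not to scale) for 38 ligand genes, 23 receptor genes and 21523 protein-coding genes, with 95% Wilson intervals as bars. Receptor genes lie at 43.5% and ligand genes at 31.6% for 10 kb, above the 22.5% of all genes, and the bars of the 2 classes overlap at every window.

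Members are short genes, with a median length of 5.2 kb against 17.4 kb for all protein-coding genes, and 56 of the 61 are at most 20 kb long. Among the 11578 protein-coding genes up to that length, 19.4% had a site within 10 kb and 44.8% within 50 kb, so the shares of all members stood further above genes of like length than above all genes, and the 24.5% without both clusters has an interval that includes 19.4%. A summit within reach of several members was counted once. The 61 genes then had 29 distinct sites within 10 kb, of which 4 served 2 members each, and 71 within 50 kb, of which 27 served up to 4 members. No site could lie within 50 kb of both a ligand and a receptor gene, because these genes stand too far apart. Over the stretches within 10 kb of an end, with overlaps merged, sites numbered 21.0 per Mb at receptor genes (11.5 to 35.2) and 17.0 at ligand genes (9.53 to 28.1). The density was 8.29 per Mb (8.05 to 8.54) over the same stretches of all protein-coding genes.

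At least 2 sites within 10 kb were present at 8 of 61 members (13.1%), against 5.44% of all genes. They were the ligand genes Ccl17, Ccl3, Ccl4 and Cxcl16 and the receptor genes Ccrl2, Cxcr5, Cxcr6 and Xcr1. None of the 61 had more than 3, while the highest number at any protein-coding gene was 9.

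**Figure D2:**
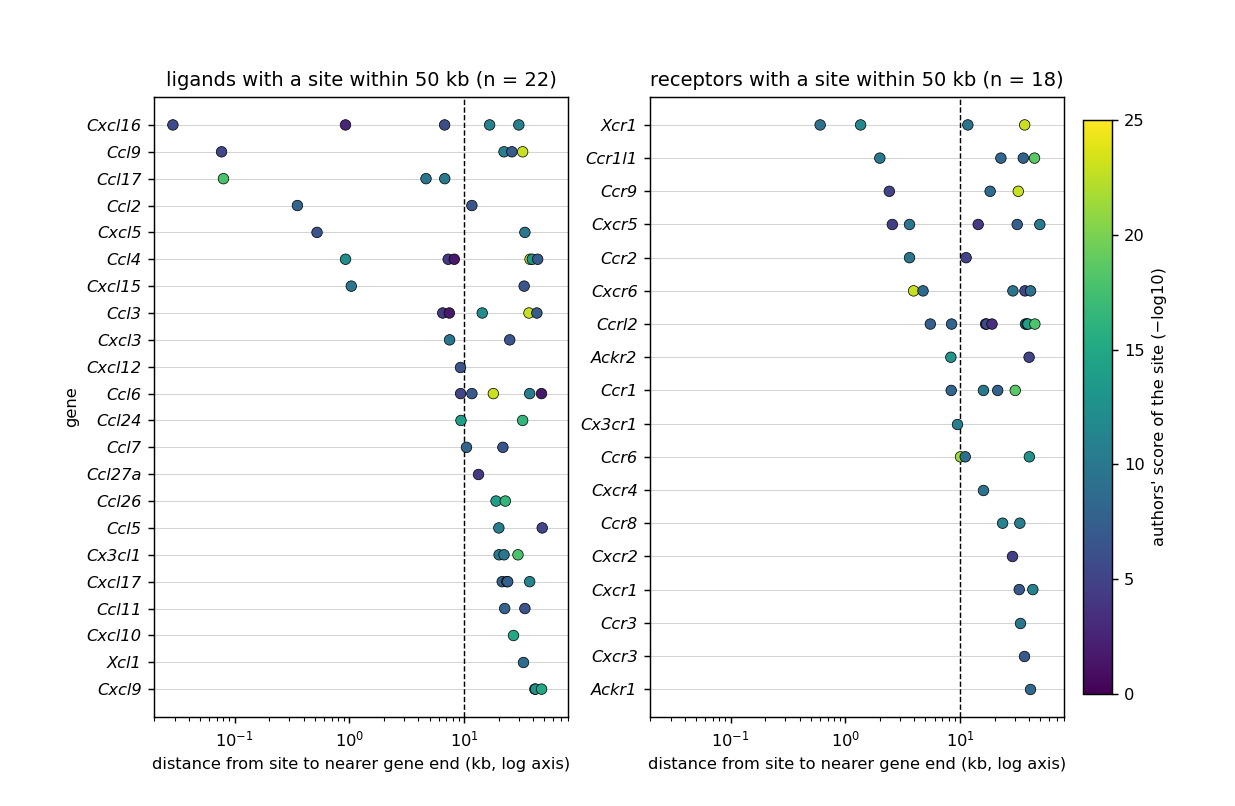
Distance (horizontal axis, kb, log scale) from each PU.1 site to the nearer end of each ligand gene (left, 22 genes) and receptor gene (right, 18 genes) with a site within 50 kb; every point is 1 site, its colour is the authors' −log10 score, and the dashed line marks 10 kb. Ligand genes reach down to 0.029 kb at Cxcl16, whereas the nearest site of any receptor gene lies 0.604 kb inside Xcr1.

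The receptor genes with a site within 10 kb all lay on chromosome 9. They made up 10 of the 14 receptor genes there (71.4%, 45.4 to 88.3), and 0 of the 9 receptor genes on other chromosomes had one, which allows a share of up to 29.9% by the same interval. Chromosome 9 as a whole was close to the genome, since 24.0% of its 1201 protein-coding genes had a site within 10 kb. Of the 10 genes, 6 belong to the group of 7 receptor genes from Ccr9 to Ccr2 (chr9:123767211-124109140). Without this cluster, a comparison chosen after its values were seen, 4 of 16 receptor genes had a site (25%, 10.2 to 49.5). Leaving out a site-rich cluster lowers the share by construction, and this wide interval includes the 22.5% of all genes without showing equality. Within 50 kb, 11 of the same 16 had a site (68.8%, 44.4 to 85.8), against 49.8% of all genes, which the interval also includes. On chromosome 9 outside the cluster, 4 of 7 receptor genes had a site within 10 kb (57.1%). On other chromosomes, 6 of 9 had one within 50 kb (66.7%, 35.4 to 87.9).

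The Ccr9 to Ccr2 cluster had 12 sites over 362 kb including 10 kb on each side, or 3.32 per 100 kb, against 0.432 per 100 kb over the genome. The genome value includes stretches far from genes. Within 10 kb of the ends of all protein-coding genes the density was higher, at 8.29 per Mb. The cluster was singled out after its sites were seen. The highest score, 22.9, belonged to a summit at chr9:123815690. It lay 3.94 kb downstream of Cxcr6, the receptor for Cxcl16 on T and natural killer T cells, and, like Cxcr6 itself, within the span of Fyco1. A second site stood 4.76 kb upstream of Cxcr6 (score 8.64). Xcr1, the receptor for Xcl1 that marks cross-presenting dendritic cells, had a site of score 11.7 at 1.36 kb upstream of its start and one of 9.24 inside the gene, near its far end. Both genes thus had a site within 5 kb on their upstream side.

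The next receptor genes of the cluster serve monocytes and other inflammatory cells. Ccr1, a receptor for Ccl3 and Ccl5, had a site of score 8.19 at 8.38 kb downstream, and sites of 7.81 and 18.6 followed at 21.3 and 30.3 kb on the same side. Inside Ccr1l1, a gene resembling Ccr1, a site of score 10.1 lay 2.00 kb from the start. Ccr2, the receptor that monocytes need to leave the bone marrow, had a site of score 9.59 at 3.63 kb downstream and one of 5.02 at 11.3 kb upstream. Ccr9, a receptor of gut-homing lymphocytes, contained a site of score 5.02. Ccr3, the eotaxin receptor of eosinophils, was the 1 gene of the 7 with no site within 10 kb, its nearest being the Ccr1l1 site at 33.1 kb.

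**Figure D3:**
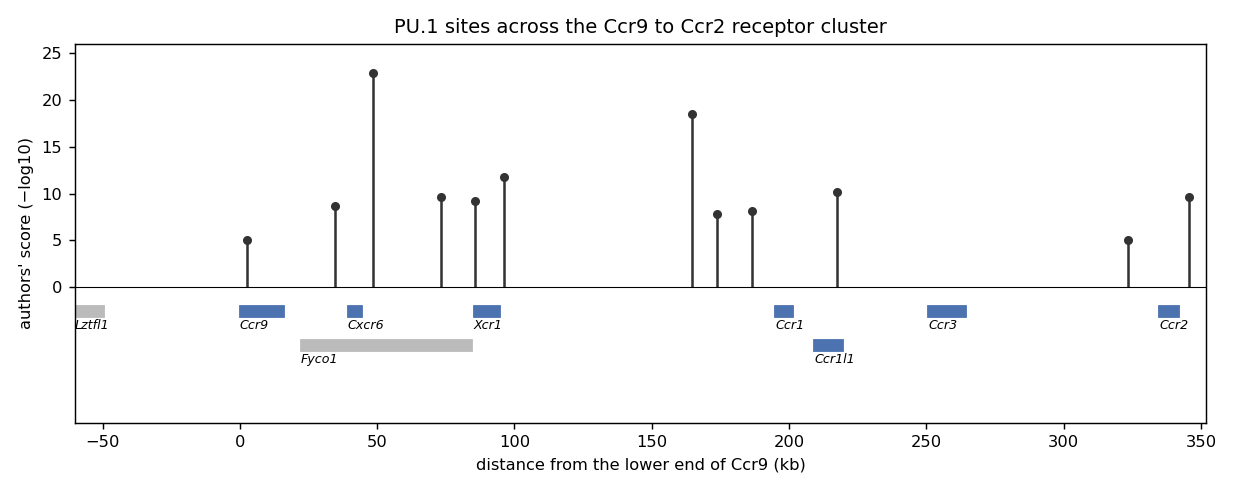
PU.1 sites (stems, height = authors' −log10 score on the vertical axis) across the receptor gene cluster of chromosome 9, by distance in kb from the lower end of Ccr9 (horizontal axis), with receptor genes in blue and other protein-coding genes in grey below. The highest stem, 22.9, stands next to Cxcr6, and no stem stands closer to Ccr3 than 33.1 kb.

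Outside the cluster, 4 receptor genes of chromosome 9 had a site within 10 kb. Cx3cr1, the fractalkine receptor of monocytes and tissue macrophages (chr9:120048683-120068296), had 1 site within 50 kb. It scored 10.6 and lay inside the gene, 9.38 kb from its start. Cxcr5, which guides B cells into follicles, had sites of score 4.62 and 9.75 inside the gene, but both were slightly closer to an end of the neighbouring gene Bcl9l (2.45 and 3.51 kb) than to one of Cxcr5 (2.57 and 3.63 kb).

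Both remaining genes encode atypical receptors. Ackr2, which clears inflammatory CC chemokines, had a site of score 13.0 at 8.32 kb downstream, which was nearer to Cyp8b1 (3.09 kb). Ccrl2, which binds chemerin and presents it to other cells, had sites of score 7.48 at 5.51 kb upstream and 7.93 at 8.44 kb downstream. The latter was nearer to Ltf (3.63 kb), the lactoferrin gene. With 9 sites within 50 kb, scoring from 3.41 to 18.01, Ccrl2 had the most of all 61 genes. Only those at 5.51 and 16.7 kb had Ccrl2 as the nearest gene. The rest were nearer to Ltf or Lrrfip2, and the one of score 18.01 stood 9.34 kb from Ltf. The other atypical receptor genes had 0 sites within 10 kb.

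The receptors for neutrophil chemokines and for bone marrow retention had sites only further out. Cxcr4, the receptor for Cxcl12 that keeps cells in the marrow, had 1 site of score 9.48 at 16.0 kb upstream. Cxcr2 and Cxcr1, the receptors for neutrophil chemokines, had their nearest sites at 28.6 kb (score 4.74) and 32.8 kb (6.75), and these were closer to the neighbouring genes Tns1 (0.844 kb) and Arpc2 (8.96 kb). Ccr6, the Ccl20 receptor of B cells and some T cells, missed the 10 kb limit narrowly. Its sites stood at 10.1 kb (score 21.3, the second highest near any receptor gene) and 11.1 kb (8.98) upstream. Ccr8 (23.5 kb), Ccr3, Cxcr3 (36.4 kb) and Ackr1 (40.7 kb) also had sites between 10 and 50 kb. Ccr4, Ccr7, Ccr10, Ackr3 and Ackr4 had 0 sites within 50 kb.

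Among ligands, the monocyte and inflammatory CC group held the largest number of genes with a site. Of these 11 genes, 6 had one within 10 kb (54.5%, 28.0 to 78.7), namely Ccl2, Ccl3, Ccl4, Ccl6, Ccl9 and Ccl24. The neutrophil group had one at 3 of 5 genes (60.0%, 23.1 to 88.2), the homeostatic and tissue group at 3 of 20 (15.0%, 5.24 to 36.0) and the pair of Cxcr3 ligands at 0 of 2. The grouping follows textbook roles, the groups are small, and every one of these intervals except that of the monocyte and inflammatory CC group and the neutrophil group includes the 22.5% of all genes. Genes of these 2 groups lie in clusters and share sites, so their counts rest on 6 and 2 distinct sites. The homeostatic and tissue group counts the copies of Ccl21 and of Ccl27 as separate genes, which lowers its share.

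The monocyte group lies mostly in 2 clusters of chromosome 11 that differed in the number of sites. The cluster from Ccl5 to Ccl4 (chr11:83525778-83664683) had 7 sites over 159 kb with 10 kb added on each side, or 4.41 per 100 kb, and 4 of its 5 genes had a site within 10 kb. The cluster from Ccl2 to Ccl1 (chr11:82035577-82179812) had 1 site over 164 kb, or 0.609 per 100 kb, and 1 of its 6 genes had a site within 10 kb. This site scored 8.00 and lay 0.353 kb beyond the lower end of Ccl2, the main attractant of Ccr2-bearing monocytes. A further site of score 6.59 stood at 11.7 kb on the same side. Ccl7 (10.5 kb) and Ccl11 (22.6 kb) had the Ccl2 site as their nearest, and Ccl12, Ccl8 and Ccl1, at the other side of the cluster, had 0 sites within 50 kb. Without the Ccl5 to Ccl4 cluster, again a comparison chosen after its values were seen, 8 of 33 ligand genes had a site within 10 kb (24.2%, 12.8 to 41.0).

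Ccl3 and Ccl4, the macrophage inflammatory proteins, overlap in the gene table and share sites. Together they had 3 sites within 10 kb. The one of score 12.1 lay inside Ccl4, 0.927 kb from its upper end, and was 14.4 kb from Ccl3. The others scored 4.23 and 1.65, the latter among the weakest of the list (0.585% of all sites scored lower). Both lay within 10 kb of both genes, slightly nearer to Ccl3 (6.52 and 7.44 kb) than to Ccl4 (7.27 and 8.22 kb). Ccl9, a CC chemokine of rodents made by myeloid cells, contained a site of score 5.26, 0.077 kb from its start, which also lay 9.33 kb downstream of its relative Ccl6. The highest score of the cluster, 22.9, belonged to a site at chr11:83611047 between Ccl6 and Ccl3, 18 kb upstream of Ccl6 and 36.8 kb downstream of Ccl3. The Cxcr6 site has the same score. The 11111 sites share 1333 score values, and 12 sites have this one. Ccl5 had its nearest site at 20.1 kb (score 10.7).

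**Figure D4:**
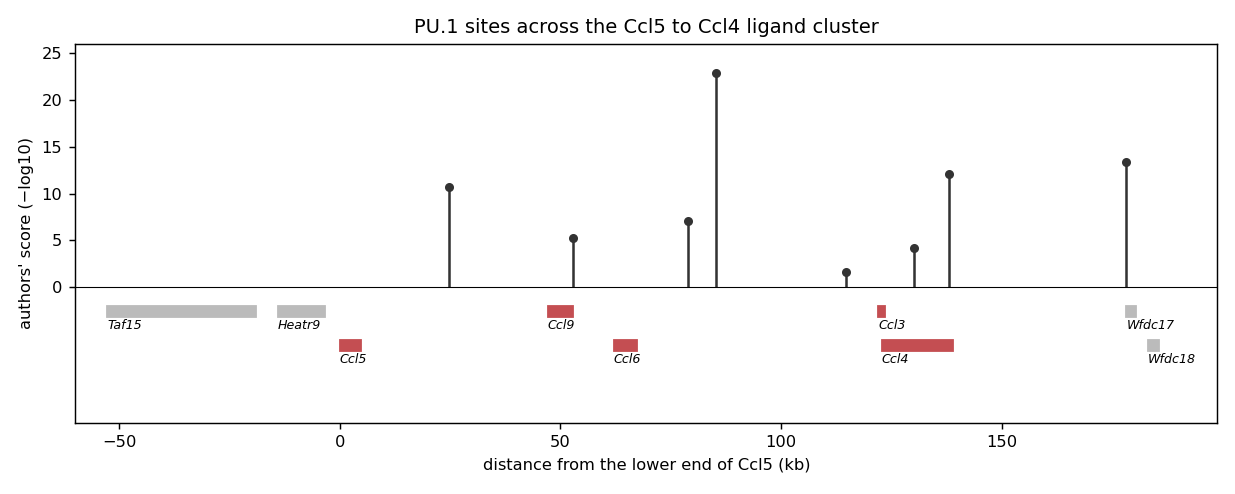
PU.1 sites (stems, height = authors' −log10 score on the vertical axis) across the Ccl5 to Ccl4 cluster of chromosome 11, by distance in kb from the lower end of Ccl5 (horizontal axis), with ligand genes in red and other protein-coding genes in grey below. The highest stem, 22.9, stands between Ccl6 and Ccl3 and more than 10 kb from either gene.

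Of the 48 members matched in the RefSeq promoter table, Ccl9 and Cxcl15 were the 2 whose entry, which runs from 250 bases before to 50 bases after the start, lay within 1 kb of a summit, so both promoters are shown. Printed for each are the 250 bases before the gene's start in mm10 (RefSeq, GRCm38.p6), chr11:83578637-83578886 on the minus strand for Ccl9 and chr5:90794284-90794533 on the plus strand for Cxcl15. They are written 5′ to 3′ with the GGAA core in capitals on either strand (GGAA or TTCC). The summits lie 77 bases (Ccl9) and 1036 bases (Cxcl15) downstream of the starts and so outside these bases.
Ccl9: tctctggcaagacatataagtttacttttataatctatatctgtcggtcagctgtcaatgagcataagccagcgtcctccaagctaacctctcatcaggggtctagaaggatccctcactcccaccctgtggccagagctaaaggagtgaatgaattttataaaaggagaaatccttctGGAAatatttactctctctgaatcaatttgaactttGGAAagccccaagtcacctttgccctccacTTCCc
Cxcl15: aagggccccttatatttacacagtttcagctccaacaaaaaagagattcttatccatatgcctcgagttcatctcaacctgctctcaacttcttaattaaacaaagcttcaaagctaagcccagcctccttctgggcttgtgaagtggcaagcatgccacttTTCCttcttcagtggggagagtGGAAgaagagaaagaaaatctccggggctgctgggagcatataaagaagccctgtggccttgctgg
The Ccl9 stretch holds 2 GGAA on the strand shown and 1 on the other, and the Cxcl15 stretch holds 1 on each. The longer forms, namely GAGGAA with AGGAAGT and also GAGGAAGT, contain GGAA and overlap each other, and each had 0 matches on both strands of both promoters. Of 21045 promoter stretches cut to the same 250 bases, 93.1% hold GGAA, 22.5% GAGGAA, 7.35% AGGAAGT and 2.25% GAGGAAGT. In the 453 stretches that hold a summit, the shares were 99.8%, 42.6%, 28.7% and 9.93%. Ccl2, Ccl4, Cxcl5 and Cxcl16 had no entry.

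Ccl24, or eotaxin-2, which attracts eosinophils through Ccr3, lies apart from the chromosome 11 clusters. It had a site of score 13.9 at 9.40 kb beyond its upper end, and the neighbouring ligand gene Ccl26 had the same site at 19 kb.

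In the neutrophil group, Cxcl5 contained a site of score 6.57, 0.523 kb from its upper end. Cxcl15, a neutrophil chemokine of the lung, had one of 9.77 inside the gene at 1.04 kb from its start, and the same site lay 7.48 kb downstream of Cxcl3. Cxcl1 and Cxcl2, which attract neutrophils through Cxcr2, had their nearest site, again that of Cxcl15, at 95.7 and 108 kb. The whole cluster (chr5:90759298-90905938) thus had 2 sites, both in its Cxcl5 to Cxcl15 part. Both Cxcr3 ligand genes, which interferon induces and which draw T cells, had sites of higher score at greater distance, with a shared site of 15.0 at 26.6 kb upstream of Cxcl10 and 47.4 kb upstream of Cxcl9. Cxcl9 also had sites of score 16.4 and 12.7 at 41.4 and 42.0 kb downstream, within 2 kb of the gene Naaa.

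Among the 20 homeostatic and tissue ligands, Ccl17 and Cxcl16 had 3 sites each within 10 kb, and Ccl17 had the higher scores. The gene (chr8:94809380-94812038) encodes a Ccr4 ligand made by dendritic cells. It contained a site of score 17.8 at 0.080 kb from its downstream end and 2 more at 4.66 kb (9.75) and 6.79 kb (10.1) upstream. The first was the highest score within 10 kb of any ligand gene, above 93.7% of all sites. Its neighbours differed. Cx3cl1, the fractalkine gene, had the same 3 sites at 20.2 to 29.5 kb, and Ccl22, the other Ccr4 ligand, had its nearest site at 51.2 kb, just beyond the wider window.

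Cxcl16, a membrane-bound ligand of Cxcr6 that also takes up oxidised lipid, had sites that scored 5.59 at 0.029 kb from the upper end, 2.72 at 0.926 kb below the lower end and 5.78 at 6.77 kb below it. The last 2 were nearer to Med11. All 3 scored below the median of all sites, 8.56. Cxcl12, the ligand of Cxcr4, had 1 site of score 6.57 at 9.31 kb downstream. Ccl27a (13.3 kb), Ccl26, Cx3cl1, Cxcl17 (21.5 kb) and Xcl1 (32.7 kb) had sites only between 10 and 50 kb. Ccl1, Ccl19, Ccl20, Ccl21a, Ccl21b, Ccl21d, Ccl22, Ccl25, Ccl27b, Ccl28, Cxcl13 and Cxcl14 had 0 within 50 kb. The cluster of chromosome 4 from Ccl27a to Ccl21a, which holds the lymph node ligands Ccl19 and Ccl21a, had 0 sites over 1025 kb. This stretch holds copies of Ccl21 and of Ccl27, and whether reads could be placed uniquely there was not tested. The absence of listed sites is therefore no measure of absent PU.1.

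Set side by side, known partners had sites at both genes in some cases and at only 1 gene or neither in others. The pairs are examples rather than all known pairs, and no share for other gene pairs stands beside them. Within 10 kb, both partners had a site for Cxcl16 and Cxcr6, for Ccl2 and Ccr2, and for Ccl3 and Ccr1. The Ccl3 sites scored 4.23 and 1.65, and both also lay within 10 kb of Ccl4. The ligand gene alone had one for Ccl17 (Ccr4 had 0 within 50 kb), Cxcl12 (Cxcr4 at 16.0 kb), Ccl24 (Ccr3 at 33.1 kb) and Cxcl5 (Cxcr2 at 28.6 kb). The receptor gene alone had one for Ccr1 and Ccl5 (Ccl5 at 20.1 kb), Cx3cr1 (Cx3cl1 at 20.2 kb), Xcr1 (Xcl1 at 32.7 kb) and Cxcr5 (Cxcl13 had 0 within 50 kb). Neither gene had a site within 50 kb for Ccr7 and its ligands Ccl19 and Ccl21a, or for Ccr4 and Ccl22. For Ccr6 (10.1 kb) and Ccl20 (0 within 50 kb), neither had one within 10 kb.

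Scores near members were like those of the list. The 29 sites within 10 kb of a member had a median score of 8.64 (quartiles 5.78 and 10.1), against 8.56 (5.78 and 11.9) for all 11111. The 14 at receptor genes had a median of 9.42 (8.00 and 10.4) and the 15 at ligand genes 6.57 (5.43 and 9.95). Within 50 kb the order turned, with 8.98 for the 39 sites of receptor genes and 9.76 for the 32 of ligand genes, so neither class had the higher scores at both distances. With only sites of score 10 or more, 5 of 23 receptor genes (21.7%, 9.66 to 41.9) and 3 of 38 ligand genes (7.89%, 2.72 to 20.8) had a site within 10 kb, against 9.13% of all genes. Those receptor genes were Cxcr6, Ackr2, Xcr1, Cx3cr1 and Ccr1l1, and the ligand genes were Ccl17, Ccl24 and Ccl4.

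**Figure D5:**
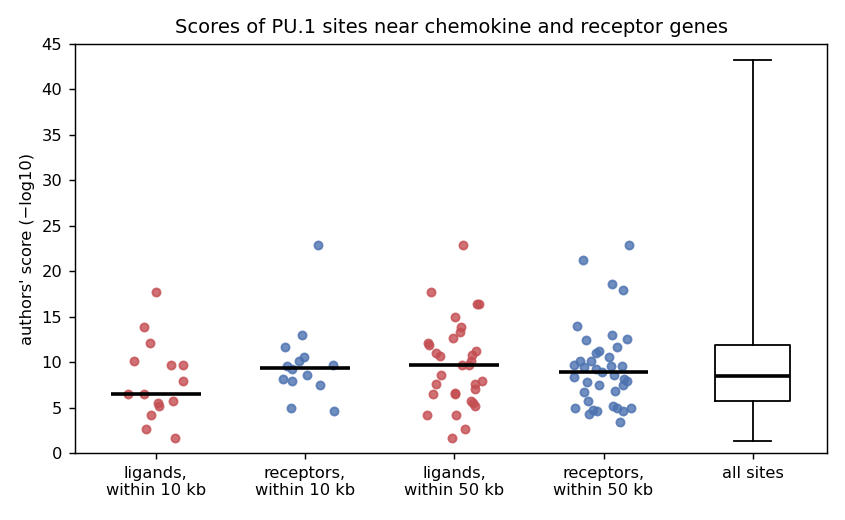
Authors' −log10 scores (vertical axis) of the distinct PU.1 sites within 10 kb and 50 kb of ligand genes (red) and receptor genes (blue), 1 point per site with the median as a black line; the box for all 11111 sites shows quartiles and median, with whiskers to the lowest and highest score. The points of both classes spread around the all-site median of 8.56, and none exceeds 22.9.

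Sites near members lay upstream, inside and downstream of the genes, and no such split over all genes stands beside these numbers. Where the strand is known, the 10 pairs of a ligand gene and a site within 10 kb had the site upstream in 3 cases, inside the gene in 3 and downstream in 4. For signalling receptors these were 2, 4 and 3, and for atypical receptors 1, 0 and 2. The inside sites lay between 0.077 kb (Ccl9) and 9.38 kb (Cx3cr1) from the start. Of the 29 distinct sites, 13 were inside a member, and 6 were nearer to an end of a gene outside the families.

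A chosen list of genes through which chemokine receptors signal had a site within 10 kb at a larger share of its genes than the ligands and receptors themselves. Of its 26 genes for G protein subunits, kinases, arrestins, Rac activators and regulators of G protein signalling, 21 had a site within 10 kb (80.8%, 62.1 to 91.5), against 22.5% of all protein-coding genes. The list was chosen with earlier results of these data known, so this share is no independent result. Some of its genes, Elmo1 and Dock2 among them, are far longer than the members, and the comparison was not adjusted for length. The highest score was at Elmo1 (20.4, inside the gene), a partner of Dock2 in activating Rac. Next came Arrb1 (19.4), a β-arrestin gene, Rgs2 (18.01), which shortens G protein signals and had 4 sites, and Prex1 (17.9), a Rac activator. Pik3r5 and Pik3r6, the regulatory subunits of the phosphoinositide kinase γ, share a site of score 17.2 between them. Plcb2, Plcb3, Rgs1, Rgs19 and Ptk2b had 0 sites within 10 kb. Of 6 further genes chosen by hand outside the name pattern, 4 had a site within 10 kb (66.7%, 30.0 to 90.3), against the same 22.5%. Only Pf4 and Ppbp among the 6 are CXC ligands, under older names, so the count is not one of chemokine genes. Ppbp, a platelet ligand, shares the Cxcl5 site at 7.42 kb, and Pf4 had 0 sites within 10 kb. The others with a site were Cmklr1, the chemerin receptor gene (2 sites, the higher of score 21.2), Pitpnm3 and Cklf.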

How the data were processed

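PU.1 ChIP-seq was done on 3 PU.1 high and 2 PU.1 low libraries. The tools were CASAVA 1.8.2 and MACS2 and the build was mm10, per the submitters' processing notes. Aligner, filters, MACS2 settings and the handling of replicates: not given in the sources used here. Each deposited value is the authors' −log10 score of a summit, from a p or q value (unstated which).

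Distances were counted from the 1-based summit to the nearer end of each gene in the RefSeq table of GRCm38.p6 (Python 3.11.15, pandas 2.3.3, scipy 1.17.1). Genes placed within the first 3 Mb of a chromosome, which is unsequenced in mm10, were left out (108 protein-coding genes). Upstream and downstream follow the strand in the RefSeq promoter table, and the start is the gene end on that side. Members closer than 500 kb to each other formed a cluster. The genome density runs from 3 Mb to the last gene end of each chromosome. The counting was tested on simulated data. No test was run.

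Members, gene lists and windows were chosen with earlier results of these data known. One gene that fits the naming rule is not reported here. All other members are named, and of the signalling list the 6 with the highest score. A site is assigned by distance alone. Alternatives were windows, minimum score, gene bodies, nearest gene, start side and merged gene copies.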

Additional observations from a re-analysis of the deposited data

How the results depend on the processing

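Counts moved with the window and the minimum score. At 1 kb, 7 members (6 ligand and 1 receptor genes) and 8 distinct sites remained. Those members were 11.5% (5.67 to 21.8), against 6.44% of all genes. At a score of 10 or more, 8 members (3 and 5) and 9 sites were counted within 10 kb. That was 13.1% (6.8 to 23.8), against 9.13% of all genes. Within 50 kb, 26 members (42.6%, 31.0 to 55.1) and 29 sites were counted, against 26.3% of all genes. The 13 ligand genes among them were 34.2% (21.2 to 50.1), an interval that includes 26.3%. With the start side only, 11 of 48 genes of known strand (5 of 28 ligand and 6 of 20 receptor genes) had one of 15 sites within 10 kb. No share over all genes stands beside this count or the next. Counting both ends, an alternative added after the data were seen, gave 16 of the 48 and 7 of the 28 ligand genes. Without the Ccr9 to Ccr2 cluster, also added then, 4 of 16 receptor genes had a site, and without it and the Ccl5 to Ccl4 cluster 12 of 49 members. Given to the nearest gene end at any distance, 45 sites fell to members. The median score was 9.76 for ligand and 8.98 for receptor genes at 50 kb, and 8.64 and 8.49 with nearest ends only. Where fewer genes or sites were counted by construction the counts fell, and the cause of other shifts was not tested. Gene bodies added to the windows changed 0 of these counts. With near-identical gene copies counted once, 22 of 58 members and 12 of 35 ligand genes had a site within 10 kb. Copies among all protein-coding genes were not merged, so no matching share stands beside these counts. No paired analysis was possible because the deposited sites carry no replicate values, and no library could be left out. Depth limits all counts, since a missing site may be one that was not detectable.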

Other observations

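Cxcl11, the third ligand of Cxcr3, is listed as a transcribed pseudogene in the RefSeq table of this mouse strain and was therefore not counted among the members. Its nearest site, of score 15.0, stood 12.2 kb above the gene. It is the same site that stood nearest to Cxcl10.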
